A study of Mus musculus with 12 samples.

Results

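Fatty acid synthesis, desaturation and elongation were followed in the mouse brain through 36 genes, out of 55536 genes with a row in the count files. The genes were chosen by name for their known place in the pathway, with earlier results of these data known. They comprise 3 genes that supply acetyl-CoA and NADPH, 2 acetyl-CoA carboxylases, 3 synthases, 3 regulators, 8 desaturases, 7 elongases, 6 genes of the other steps of elongation and 4 acyl-CoA synthetases. RNA-Seq was performed on whole cerebellum and whole cerebral cortex of 1-month-old mice of 2 genotypes, with 3 mice per genotype and, by the numbers in the labels, both tissues from each mouse. WT mice carried intact *Snx14*. *Snx14*-KO mice were homozygous in every tissue for a frameshift deletion in *Snx14* made by Cas9 in C57BL/6J embryos and backcrossed to that strain, and all of them carry this single allele. The question behind the comparison of tissues was what sets apart the cerebellum, the tissue that later degenerates, from the cortex. The study used both sexes, and the sex of each library is not given in the sources used here.

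Cells build saturated fatty acids from acetyl-CoA in the cytosol. Acetyl-CoA carboxylase makes malonyl-CoA, and fatty acid synthase (*Fasn*) condenses malonyl units into palmitate with NADPH as the reductant. In the endoplasmic reticulum, elongases add further units in a cycle of condensation, reduction, dehydration and reduction, while stearoyl-CoA desaturases place the first double bond and the front-end desaturases make polyunsaturated chains from dietary precursors. Acyl-CoA synthetases activate free fatty acids for each of these fates. In brain, myelin-forming oligodendrocytes and astrocytes are known for high rates of lipid synthesis, and SNX14, a sorting nexin of the endoplasmic reticulum that contacts lipid droplets, has been proposed to work beside fatty acid desaturation.

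The libraries held 16672589 to 19887427 counts on genes, and the labels gave 3 mice per group, so *P* values rest on the spread between 3 animals. *Snx14* (ENSMUSG00000032422.17) was at 65.9, 66.4 and 70.6 CPM (counts scaled to library size by the TMM method among the libraries of one tissue) in the 3 WT cerebella and at 10.8, 11.5 and 11.9 CPM in the *Snx14*-KO cerebella. In cortex it was at 51.1, 52.6 and 57.0 CPM in WT and at 8.12, 7.61 and 7.32 CPM in *Snx14*-KO mice, so every library matched its label. The summed level of granule cell markers was 3243 to 3724 CPM in WT cerebella and 31.9 to 46.5 CPM in WT cortices, and that of cortical excitatory neuron markers was 342 to 444.4 and 1709 to 1892 CPM, so the libraries carried the markers of their labelled tissue. Some libraries stood apart. Choroid plexus markers summed to 82.7, 2816 and 7683 CPM in WT cerebella and 2087, 3333 and 1014 CPM in *Snx14*-KO cerebella of mice 1, 2 and 3. *Snx14*-KO cerebellum 3 had microglial markers at 388 CPM, against at most 179.7 CPM in the other 5 cerebella, and Purkinje cell markers at 8149.7 CPM, against at least 10079.9 CPM. *Snx14*-KO cortex 2 had oligodendrocyte markers at 5364 CPM, against at least 7014 CPM in the other 5 cortices, and meningeal markers at 313 CPM, against at most 117 CPM. In whole tissue, fewer cells of a type and less RNA per cell cannot be told apart.

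Levels of different genes were compared per gene length, as TPM, the share of all counts after correction for that length. The length is the number of all annotated exon bases of a gene, such as 17074 for *Acaca* and 9632 for *Acacb*, and can exceed that of the transcripts present. Ranks and shares between genes depend on it. *Scd2*, the stearoyl-CoA desaturase that dominates in brain, was the highest of the 36 genes in both tissues, at 1389 ± 77.7 TPM in WT cerebella and 969.9 ± 44.3 TPM in WT cortices (mean ± SD, n = 3). It held 34.5% and 31.0% of the summed TPM of the 36 genes. *Tecr*, the reductase that closes each elongation cycle, came next with 601 ± 48.2 and 369.8 ± 7.65 TPM, followed by *Hacd3*, a dehydratase of the same cycle, with 209.6 ± 2.98 and 213 ± 9.49 TPM. Each of these 3 genes lay above the next in every WT library. In WT cerebella the next 7 genes, *Fads1*, *Scd1*, *Hsd17b12*, *Acly*, *Fads2*, *Acsl3* and *Elovl5*, lay between 160.2 and 128 TPM, and neighbours in that order differed by less than the sum of their SDs. *Fasn* ranked 15 in cerebellum, at 62.2 ± 2.57 TPM, and 11 in cortex, at 86.9 ± 6.76 TPM. At the bottom were *Mlxipl*, with 0.387 ± 0.0544 and 0.933 ± 0.0783 TPM, *Scd4*, with 0.129 ± 0.112 and 0.417 ± 0.309 TPM, and *Elovl3*, which had no count in any WT library and 1 or 2 counts in 2 of the 3 *Snx14*-KO cortices. *Scd4*, whose product is known from heart, and *Elovl3*, an elongase known from skin and brown fat, did not have enough counts to be tested, and the other 34 genes were tested in every comparison.

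**Figure D1:**
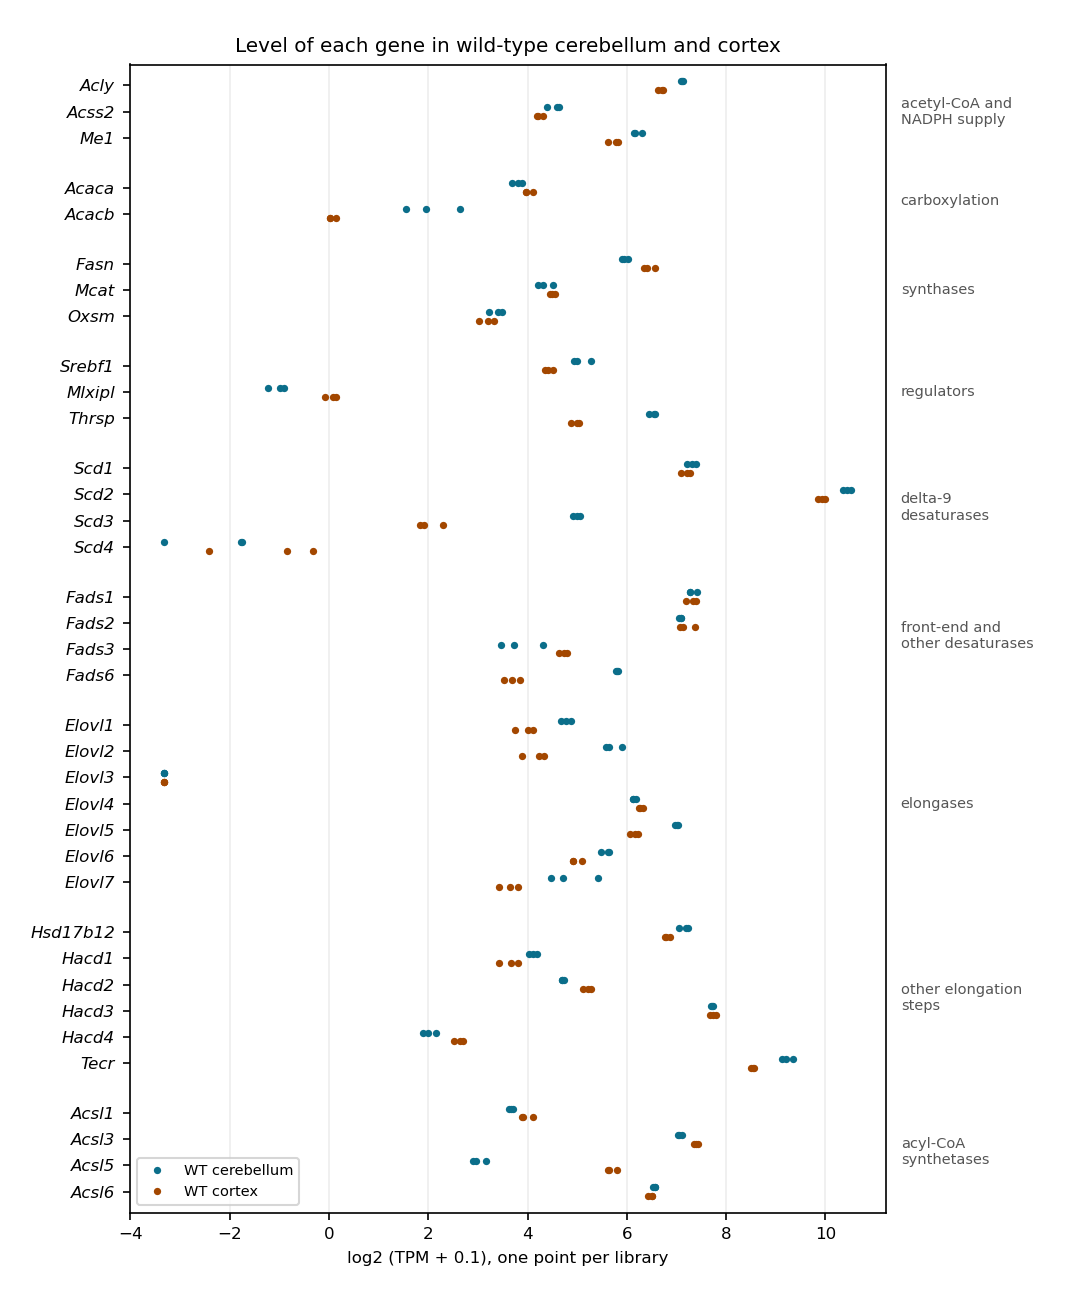
Level of each of the 36 genes in WT cerebellum and WT cortex, as log2 of TPM plus 0.1, with 1 point per library (3 per tissue) and the genes grouped by role. *Scd2* and *Tecr* lie furthest right in both tissues, *Scd3*, *Fads6* and *Acacb* lie further right in cerebellum, and *Acsl5* lies further right in cortex.

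The 4 *Scd* genes lie side by side on chromosome 19 (GRCm38), with *Scd3* at chr19:44203269-44244016, *Scd2* at chr19:44293674-44306864 and *Scd4* at chr19:44333092-44346743 on the plus strand and *Scd1* at chr19:44394455-44407879 on the minus strand. Because they are close copies, how far reads can tell them apart bears on each value below. In their coding sequences, *Scd3* shared 91.5% of aligned bases with *Scd1*, 88.3% with *Scd2* and 84.7% with *Scd4*. Of all 50-base stretches of the longest coding transcript, 6.37% in *Scd3*, 4.66% in *Scd1*, 3.79% in *Scd2* and 3.44% in *Scd4* recurred exactly in another of the 4 genes, and read pairs that mapped to several places had been dropped by the authors. The 60 coding bases below are those where the 4 genes differ most, and capitals mark the 31 positions at which they are not all alike. The bases run 5′ to 3′ from coding base 295 in *Scd1*, 304 in *Scd2*, 307 in *Scd3* and 289 in *Scd4*, counted from 1 at the start codon, in the transcripts of GENCODE release M21.
Scd1: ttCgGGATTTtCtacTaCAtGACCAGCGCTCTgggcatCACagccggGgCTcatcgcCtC
Scd2: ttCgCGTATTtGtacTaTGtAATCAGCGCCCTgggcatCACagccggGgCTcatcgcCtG
Scd3: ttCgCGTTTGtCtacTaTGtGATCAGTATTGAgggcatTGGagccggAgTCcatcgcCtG
Scd4: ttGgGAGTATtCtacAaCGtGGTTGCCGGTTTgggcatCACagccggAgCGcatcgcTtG
In this window *Scd3* differed from *Scd1* at 18 bases, from *Scd2* at 16 and from *Scd4* at 23.

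Of 34 genes tested, 11 were higher and 6 lower in cerebellum by edgeR's quasi-likelihood test, where a call needed an adjusted *P* below 0.05 with a log2 fold change beyond 0.5 in either direction, together 50.0% of them. Among all genes tested, 40.4% were called, 19% higher and 21.4% lower. The 2 sets of 3 libraries did not overlap for 30 of the 34 genes, against 64.5% of all genes, and the median log2 fold change was 0.18 over the 34 genes and 0.023 over all genes. Oligodendrocyte markers, whose cells make much of the brain's lipid, summed to 11836 to 15052 CPM in WT cerebella and 7629 to 7943 CPM in WT cortices. Astrocyte and Bergmann glia markers summed to 5432 to 6187 and 4977 to 5669.7 CPM, and to 3530.5 to 3969 and 1752 to 1942 TPM. Among them *Slc1a2* was lower in cerebellum, at 1047 to 1276 against 3614 to 4147 CPM. *Slc1a3* was higher, at 2044 to 2388 against 626 to 775 CPM, as were *Gfap*, *Aqp4*, *Gdf10*, *S100b* and *Gja1*, while *Aldh1l1* overlapped. The part of these cells in the differences was not tested.

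The genes that feed the pathway differed little in size. *Acly*, which cleaves citrate to acetyl-CoA, *Acss2*, which makes acetyl-CoA from acetate, and *Me1*, a source of NADPH, had log2 fold changes of 0.36, 0.24 and 0.40, with adjusted *P* values of 4.78e-04, 0.0154 and 6.68e-04, under the size threshold for a call. The 2 acetyl-CoA carboxylases went opposite ways. *Acacb*, the form bound to mitochondria, was at 2.84, 3.77 and 6.11 TPM in WT cerebella and at 0.913, 0.920 and 1.01 TPM in WT cortices. All 3 cerebella lay above all 3 cortices, and the fitted level was 4.25 times as high (log2 fold change 2.09, SE 0.257, adjusted *P* = 4.95e-05). WT cerebellum 3, the highest for *Acacb*, also had the highest choroid plexus sum, and leaving it out gave a log2 fold change of 1.76. The 3 WT cerebella stood in the same order for *Acacb* as for their choroid plexus sums, whose part in the difference was not tested. In the *Snx14*-KO cerebella *Acacb* was at 3.87, 2.87 and 3.63 TPM, lowest in the library with the highest choroid plexus sum of that genotype. *Acaca*, the cytosolic form, had a log2 fold change of -0.28 (adjusted *P* = 0.00533), and *Acacb* made up 23.1% ± 7.13 of the summed TPM of both carboxylases in WT cerebella and 5.56% ± 0.526 in WT cortices (mean ± SD, n = 3).

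*Fasn* was lower in cerebellum, at 65.1, 61.5 and 60.1 TPM against 94.4, 81.4 and 84.8 TPM in cortex. The groups did not overlap, and the cortical level was 1.45 times the cerebellar one (log2 fold change -0.54, SE 0.0705, adjusted *P* = 7.85e-05). *Mcat* and *Oxsm*, which serve the separate mitochondrial fatty acid synthesis, were not called, with adjusted *P* values of 0.0991 and 0.465. All 3 regulators were called, in different directions, beside 40.4% of all genes. *Srebf1*, which encodes the transcription factor SREBP-1, was at 30.4, 31.7 and 38.4 TPM in WT cerebella and 22.8, 21.2 and 20.4 TPM in WT cortices (log2 fold change 0.58, SE 0.0850, adjusted *P* = 1.89e-04). *Thrsp*, a nuclear protein induced with lipogenic genes in liver, was at 94.3, 92.9 and 86.8 TPM in cerebella and 29.1, 32.8 and 31.7 TPM in cortices, 2.80 times as high in cerebellum (log2 fold change 1.49, SE 0.0904, adjusted *P* = 2.05e-07). Neither gene's groups overlapped. *Mlxipl*, which encodes the carbohydrate-responsive factor ChREBP, was lower in cerebellum at 0.327, 0.404 and 0.432 TPM against 0.997, 0.846 and 0.957 TPM (log2 fold change -1.32, SE 0.302, adjusted *P* = 0.00348), but these values rest on 10 to 32 counts per library. Without WT cerebellum 3, *Srebf1* and *Fasn* lay just under the size threshold, with log2 fold changes of 0.496 and -0.490, both still at an adjusted *P* under 0.05.

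The largest difference was in the desaturases. *Scd3*, known from skin and the Harderian gland, was at 31.9, 33.3 and 30.0 TPM in WT cerebella and 3.45, 3.67 and 4.83 TPM in WT cortices. The lowest cerebellum was above the highest cortex by a wide margin, and the cerebellar level was 7.63 times the cortical one (log2 fold change 2.93, SE 0.145, adjusted *P* = 4.15e-08). *Scd3* held 2.01% ± 0.119 of the summed TPM of the 4 *Scd* genes in WT cerebella and 0.357% ± 0.0803 in WT cortices, beside 87.9% ± 0.927 and 86.5% ± 0.848 for *Scd2* (mean ± SD, n = 3). *Scd2* itself was at 1312, 1467 and 1389 TPM in cerebella and 1013, 973 and 924 TPM in cortices. The groups did not overlap, with a log2 fold change of 0.46 (adjusted *P* = 2.26e-04) that stayed under the size threshold. *Scd1*, the main form of liver and fat, was at 159, 149 and 169 TPM in cerebella and 155, 136 and 148 TPM in cortices, which overlapped, and the interval of its log2 fold change ran from -0.086 to 0.20. The summed TPM of the 4 genes was 1503 to 1649 in WT cerebella and 1078 to 1172 in WT cortices, and *Scd1* held 10.1% ± 0.922 and 13.1% ± 0.769 of it (mean ± SD, n = 3).

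*Fads6*, which the genome annotation lists as a fatty acid desaturase, was at 56.5, 54.6 and 55.6 TPM in WT cerebella and 12.7, 11.4 and 14.2 TPM in WT cortices. No library of one tissue came near the other, and the level was 4.17 times as high in cerebellum (log2 fold change 2.06, SE 0.0866, adjusted *P* = 1.18e-08). *Fads3*, which acts on sphingoid bases, was lower in cerebellum, with 11.0, 13.1 and 19.7 TPM against 27.7, 26.6 and 24.7 TPM (log2 fold change -0.92, SE 0.164, adjusted *P* = 7.07e-04). Its cerebella were spread widely, and without WT cerebellum 3 the log2 fold change was -1.16. *Fads1* and *Fads2*, the front-end desaturases of the omega-3 and omega-6 pathways, were not called, with log2 fold changes of -0.049 (95% CI, -0.20 to 0.10) and -0.18 (95% CI, -0.35 to -0.014).

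Of the 6 elongases tested, 5 were called higher in cerebellum and none lower, beside 19% of all genes called higher and 21.4% lower. *Elovl2*, which extends polyunsaturated chains on the way to docosahexaenoic acid, was at 47.8, 59.9 and 49.9 TPM in WT cerebella and 20.05, 18.7 and 14.7 TPM in WT cortices, a 2.83-fold difference (log2 fold change 1.501, SE 0.126, adjusted *P* = 2.58e-06). *Elovl5*, which acts on shorter polyunsaturated chains, was at 128, 126 and 131 TPM in cerebella and 74.9, 71.2 and 66.4 TPM in cortices (log2 fold change 0.80, SE 0.0618, adjusted *P* = 1.42e-06). *Elovl7*, an elongase of saturated very long chains, was at 22.1, 26.2 and 42.8 TPM in cerebella and 13.9, 10.7 and 12.4 TPM in cortices (log2 fold change 1.23, SE 0.201, adjusted *P* = 3.89e-04). All 3 genes were separated between the tissues, and for *Elovl7* WT cerebellum 3 again stood well above the other cerebella, with a log2 fold change of 0.94 without it. *Elovl7*, *Fads3* and *Srebf1* stood, like *Acacb*, in the order of the choroid plexus sums in WT cerebella. So did *Me1*, *Oxsm*, *Mlxipl*, *Hsd17b12*, *Hacd2* and *Acsl6*. In *Snx14*-KO cerebella 1, 2 and 3, *Elovl7* was at 24.1, 23.5 and 19.3 TPM and *Fads3* at 12.4, 13.1 and 15.9 TPM. *Srebf1* was at 41.5, 33.7 and 37.7 TPM there, and these 3 genes did not follow the choroid plexus sums of that genotype. The part of choroid plexus was not tested. *Elovl1*, which serves saturated very long chains, and *Elovl6*, which extends palmitate, had log2 fold changes of 0.75 (adjusted *P* = 6.14e-04) and 0.55 (adjusted *P* = 1.63e-04). *Elovl4*, which makes ultra-long chains, had the opposite sign at -0.19 (adjusted *P* = 0.0330) and was too small to be called. The makeup of the family differed between the tissues. *Elovl5* had the largest share in WT cerebella, 35.9% ± 1.16 of the summed TPM of the elongases, with *Elovl4* at 19.8% ± 0.554, while in WT cortices *Elovl4* held 34.3% ± 1.54 and *Elovl5* 31.4% ± 0.819 (mean ± SD, n = 3), and these cortical shares were 32.6% to 35.4% and 30.7% to 32.3%.

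Among the other steps of elongation, *Tecr* was higher in cerebellum, at 653, 558 and 594 TPM against 377, 370.1 and 362 TPM (log2 fold change 0.64, SE 0.0715, adjusted *P* = 2.41e-05). *Hacd2* and *Hacd4*, 2 of the 4 dehydratases, were lower in cerebellum, with log2 fold changes of -0.56 (adjusted *P* = 9.83e-05) and -0.68 (adjusted *P* = 0.00148). *Hacd3*, which held 81.6% ± 0.311 of dehydratase TPM in WT cerebella and 79.5% ± 0.552 in WT cortices, had a log2 fold change of -0.088 (95% CI, -0.23 to 0.051). *Hsd17b12*, the ketoreductase of the cycle, and *Hacd1* had values of 0.30 (adjusted *P* = 0.00276) and 0.41 (adjusted *P* = 0.0295), under the size threshold, although *Hacd1* passed it at 0.51 without WT cortex 2.

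The acyl-CoA synthetases held the largest difference toward cortex. *Acsl5*, whose enzyme sits on mitochondria and endoplasmic reticulum, was at 8.89, 7.40 and 7.67 TPM in WT cerebella and 49.0, 49.4 and 55.8 TPM in WT cortices. The tissues were far apart, and the cortical level was 6.72 times the cerebellar one (log2 fold change -2.75, SE 0.104, adjusted *P* = 5.20e-09). Of its exon bases, 8.31% are also exon sequence of *Zdhhc6*, where a read pair was counted for both genes. *Acsl1* and *Acsl3*, broadly expressed forms, had log2 fold changes of -0.37 and -0.39 (adjusted *P* = 0.00410 and 2.75e-04), under the size threshold, and *Acsl6*, the brain-enriched form that favours docosahexaenoic acid, had a value of 0.016 (95% CI, -0.11 to 0.15). *Acsl5* made up 15.9% ± 1.09 of the summed TPM of the 4 synthetases in WT cortices and 3.22% ± 0.341 in WT cerebella (mean ± SD, n = 3).

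**Figure D2:**
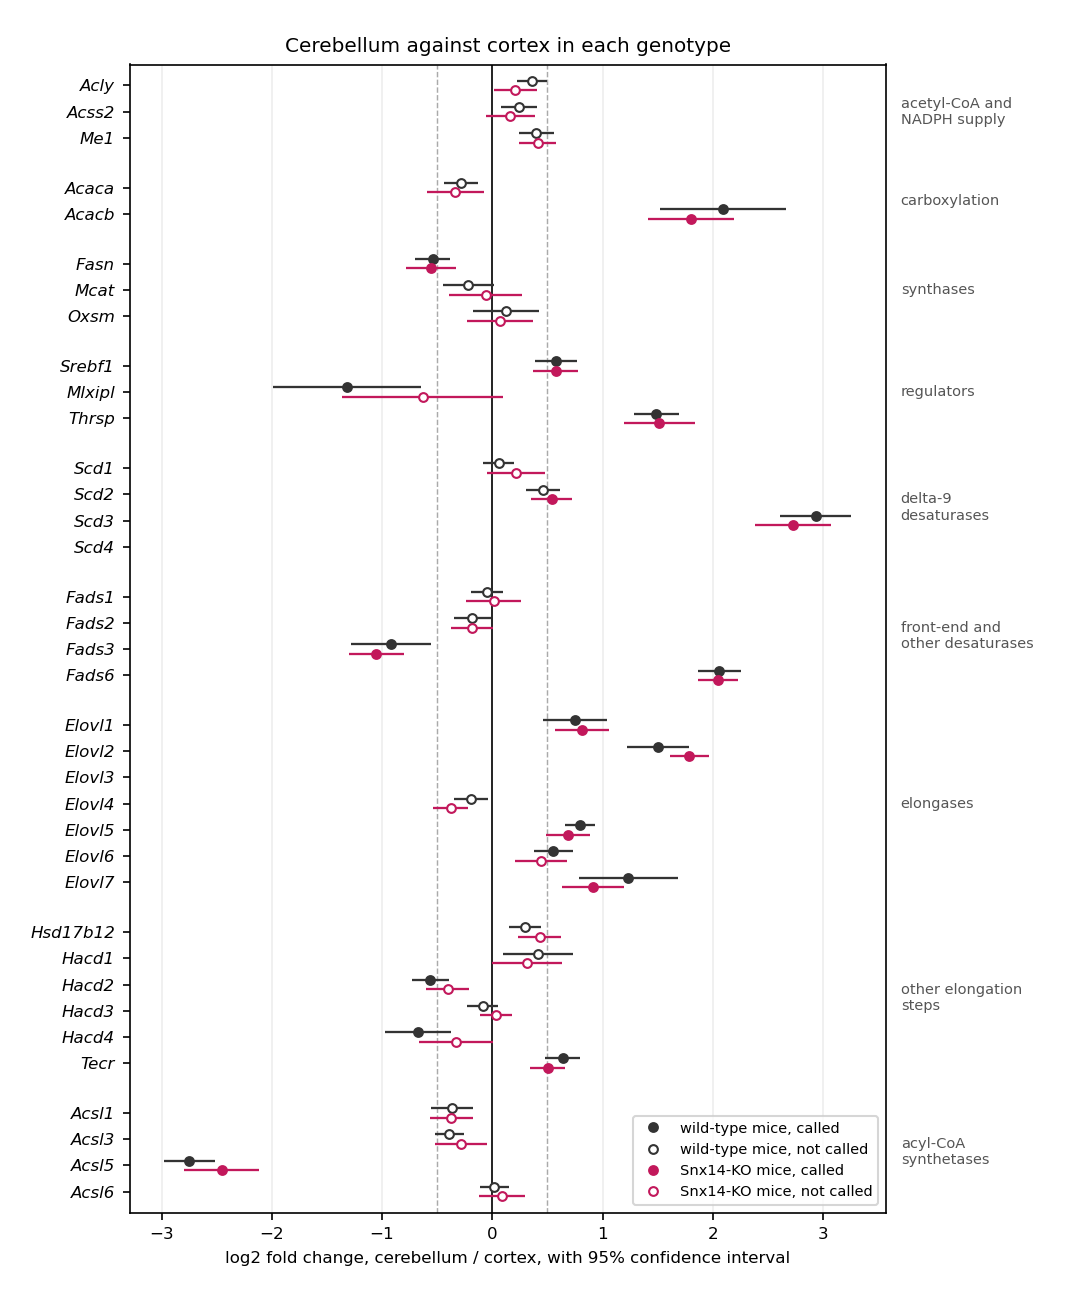
Log2 fold change of cerebellum over cortex with its 95% confidence interval for the 34 genes tested, in WT mice and in *Snx14*-KO mice (3 mice each), by role. Filled points were called (adjusted *P* under 0.05 and past the dashed lines at -0.5 and 0.5), and the 2 genotypes lie close together for most genes, with *Scd3* furthest to the right and *Acsl5* furthest to the left.

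**Figure D3:**
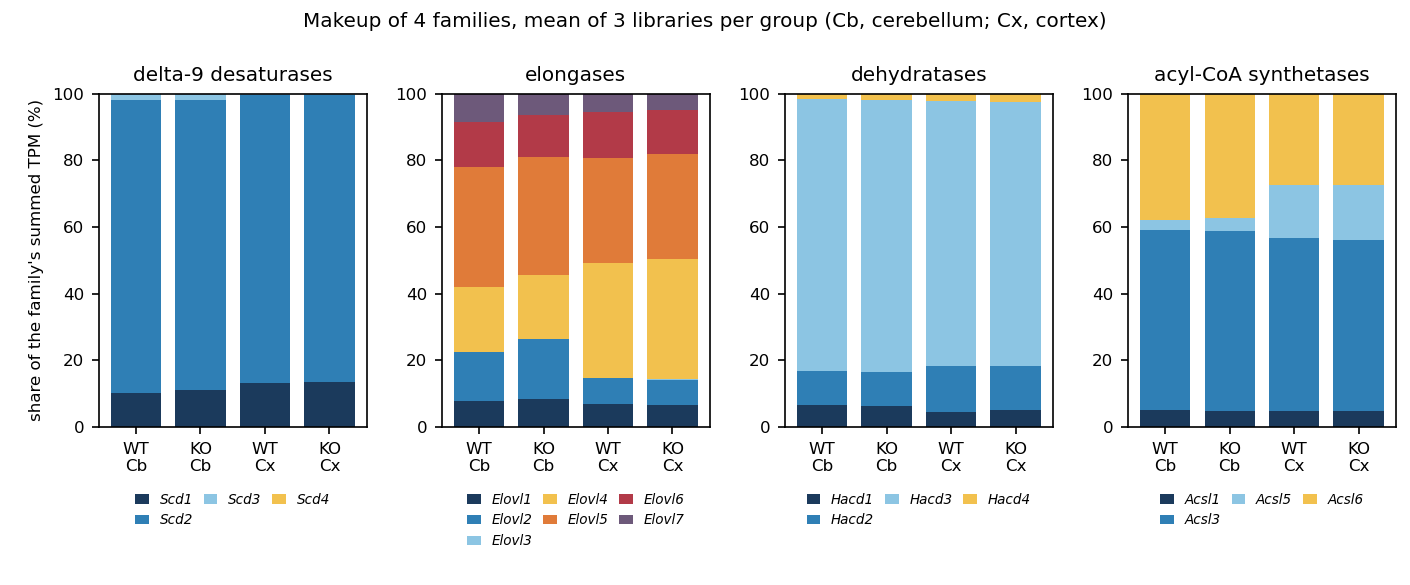
Share of the summed TPM of 4 families held by each member, as the mean of 3 libraries per group. *Scd2* fills most of the desaturase bar in all 4 groups, *Elovl4* takes a larger share of the elongases and *Acsl5* a larger share of the synthetases in cortex than in cerebellum.

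The 120 bases before the RefSeq start site are shown for 4 genes. Among those with 1 promoter entry in RefSeq (GRCm38.p6), they had the largest differences between WT cerebellum and WT cortex. The windows of *Acsl5* and *Acacb* lie inside the gene models counted here, which start at chr19:55251938 and chr5:114146535. That of *Fads6* lies mostly inside its model, which begins at chr11:115297663 on the minus strand. The windows therefore need not be the promoters of the transcripts counted. Promoter entries were found for 31 of the 36 genes, the others being *Mcat*, *Scd1*, *Scd2*, *Fads1* and *Elovl3*. Each sequence runs 5′ to 3′ on the gene's strand, and capitals mark matches on either strand to any of 5 motifs, the NF-Y box, the GC box, the TATA box, the E-box and the sterol-element core, whose letters are given with their counts.
Scd3 (chr19:44203168-44203287, plus strand): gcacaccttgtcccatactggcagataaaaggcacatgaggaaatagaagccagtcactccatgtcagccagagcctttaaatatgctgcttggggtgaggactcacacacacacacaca
Acsl5 (chr19:55253249-55253368, plus strand): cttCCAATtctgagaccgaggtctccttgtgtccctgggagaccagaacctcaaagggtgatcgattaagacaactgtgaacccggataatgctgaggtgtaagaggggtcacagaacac
Acacb (chr5:114165398-114165517, plus strand): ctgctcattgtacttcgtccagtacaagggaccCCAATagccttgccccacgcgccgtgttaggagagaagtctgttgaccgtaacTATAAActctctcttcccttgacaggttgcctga
Fads6 (chr11:115297563-115297682, minus strand): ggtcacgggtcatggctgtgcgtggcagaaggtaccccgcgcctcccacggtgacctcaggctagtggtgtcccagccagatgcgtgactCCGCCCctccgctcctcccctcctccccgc
The stretch of *Scd3* held none of the 5 motifs, *Acsl5* held a CCAAT box, *Acacb* a CCAAT box and a TATA box, and *Fads6* a GC box. Over the 250 bases before the start site, CCAAT, the box bound by NF-Y, a partner of SREBP, stood in 17 of the 31 genes (54.8%) and in 37.5% of all 27025 genes with an entry. The GC box GGGCGG stood in 22 (71.0%, against 35.4%) and TATAAA in 1, *Acacb* (3.23%, against 14.3%). The palindromic E-box CACGTG stood in 3, *Mlxipl*, *Elovl5* and *Hacd3* (9.68%, against 6.86%), and TCACNCCAC, the core of the sterol regulatory element, in 2, *Mlxipl* and *Acsl1* (6.45%, against 1.22%). A match of letters is a description of the window and says nothing about binding.

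In *Snx14*-KO mice, compared in the same way, 11 of the 34 genes were higher and 3 lower in cerebellum than in cortex, 41.2% against 37.9% of all genes tested (18.2% higher and 19.6% lower). Of the 17 genes called in WT mice, 13 were called with the same sign in *Snx14*-KO mice, which is 76.5% of the WT calls and 92.9% of the *Snx14*-KO calls. Over all genes these shares were 80.7% and 86.2%. *Scd3* was at 32.0, 32.8 and 27.2 TPM in *Snx14*-KO cerebella and 4.45, 3.78 and 5.05 TPM in *Snx14*-KO cortices (log2 fold change 2.72, SE 0.155, adjusted *P* = 3.51e-07). *Acsl5* was at 10.6, 7.198 and 12.7 TPM in cerebella and 52.2, 52.7 and 53.8 TPM in cortices (log2 fold change -2.45, SE 0.151, adjusted *P* = 6.04e-07). *Fads6*, *Elovl2*, *Acacb* and *Thrsp* had log2 fold changes of 2.05, 1.79, 1.80 and 1.52, each called. The 4 genes called only in WT mice, *Mlxipl*, *Elovl6*, *Hacd2* and *Hacd4*, had values of -0.63, 0.44, -0.41 and -0.33 in *Snx14*-KO mice, and *Scd2*, called only in *Snx14*-KO mice, had 0.54. Several calls lay at the size threshold. *Tecr*, at 0.502, was no longer called without *Snx14*-KO cerebellum 1 or 2 or *Snx14*-KO cortex 1 or 3 (lowest 0.486), *Srebf1* without *Snx14*-KO cerebellum 1 (0.498), *Fasn* without *Snx14*-KO cortex 2 (-0.45) and *Scd2* without *Snx14*-KO cerebellum 3 (0.495), while *Hsd17b12* was called without *Snx14*-KO cortex 3 (0.51) and *Elovl6* without *Snx14*-KO cortex 2 (0.56).

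None of the 34 genes was called between *Snx14*-KO and WT cerebella, where 0.00549% of all genes tested were called, *Snx14* alone. DESeq2 at the same thresholds also called none of the 34, beside 0.901% of all genes. By the quasi-likelihood test 4 genes, *Scd1*, *Fads2*, *Elovl2* and *Hacd4*, had an unadjusted *P* under 0.05, all higher in *Snx14*-KO cerebella, which is 11.8% of the 34 against 8.15% of all genes in either direction and 5.78% higher. DESeq2 added *Elovl7*, which was lower (14.7%, against 7.27% of all genes), as did the fit with no low-count filter (14.3%, against 7.35%). RLE size factors dropped *Scd1* (8.82%, against 8.21%). A fit over 12 libraries dropped *Scd1* and added *Elovl7* and *Acsl5* (14.7%, against 9.67%). Separation of all *Snx14*-KO from all WT libraries was seen for 5 genes (14.7%), against 12.2% of all genes. Positive log2 fold changes numbered 22 of 34, beside 9074 of 18201 over all genes, with a median of 0.041 beside -0.00062. The sign changed under some alternative for 12 of the 34.

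In 28 of the 34, the 95% confidence interval of the log2 fold change lay inside -0.5 to 0.5, and it reached past one of these limits for *Acacb*, *Mlxipl*, *Fads3*, *Elovl7*, *Hacd4* and *Acsl5*.

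Among the stearoyl-CoA desaturases, the step set beside SNX14 above, the log2 fold changes of the 3 genes tested between genotypes were within 0.5 in both tissues. *Scd1* was at 247, 235 and 254 CPM in WT cerebella and 281, 252 and 327 CPM in *Snx14*-KO cerebella (log2 fold change 0.22, SE 0.0950, adjusted *P* = 0.585). The groups overlapped, since *Snx14*-KO cerebellum 2 was below WT cerebellum 3, and *Snx14*-KO cerebellum 3 was the highest of the 6. *Scd2* was at 2273, 2592 and 2337 CPM in WT and 2558, 2308 and 2715 CPM in *Snx14*-KO cerebella, with a log2 fold change of 0.074 (95% CI, -0.13 to 0.28, adjusted *P* = 0.932). The 2 groups overlapped through most of their range. *Scd3* had a log2 fold change of -0.052 (95% CI, -0.29 to 0.19).

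*Fads2*, the desaturase that starts the synthesis of polyunsaturated fatty acids, was at 143, 141 and 137 CPM in WT and 159, 151 and 179 CPM in *Snx14*-KO cerebella. All 3 *Snx14*-KO libraries were above all 3 WT libraries, by a log2 fold change of 0.21 (SE 0.0764, adjusted *P* = 0.474). *Fads6* was at 119, 118 and 114 CPM in WT and 113, 108 and 104 CPM in *Snx14*-KO cerebella, lower in each *Snx14*-KO library, with a log2 fold change of -0.11 (SE 0.0646, adjusted *P* = 0.763). *Elovl2* was at 60.1, 76.8 and 60.9 CPM in WT and 76.4, 80.4 and 80.9 CPM in *Snx14*-KO cerebella (log2 fold change 0.27, SE 0.0977, adjusted *P* = 0.485). WT cerebellum 2 lay within the *Snx14*-KO range, just above *Snx14*-KO cerebellum 1, and the other WT cerebella lay below it. Astrocyte and Bergmann glia markers, which belong to cells known to express *Elovl2*, summed to 5432, 6187 and 5710.0 CPM in WT and 6158, 6684 and 7466 CPM in *Snx14*-KO cerebella, and meningeal markers to 158, 326 and 336 and 456, 433 and 447 CPM. Oligodendrocyte precursor markers summed to 130.1, 142 and 118 CPM in WT and 146, 148 and 204 CPM in *Snx14*-KO cerebella. The meningeal and the precursor sums did not overlap between the genotypes, and the part of these cells in the values was not tested.

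Of the dehydratases, *Hacd3* was at 179, 182 and 178 CPM in WT and 188, 193 and 191 CPM in *Snx14*-KO cerebella, without overlap (log2 fold change 0.089, adjusted *P* = 0.804). *Hacd4* was at 9.35, 8.50 and 7.47 CPM in WT and 9.39, 11.5 and 13.3 CPM in *Snx14*-KO cerebella (log2 fold change 0.43, SE 0.163, adjusted *P* = 0.499). Its groups were parted only narrowly, between WT cerebellum 1 and *Snx14*-KO cerebellum 1, and 11.0% of its exon bases are shared with *Focad*. *Mlxipl* was at 0.574, 0.723 and 0.736 CPM in WT and 0.998, 1.05 and 1.04 CPM in *Snx14*-KO cerebella, again without overlap, but from only 10, 12 and 13 counts in WT and 20, 18 and 18 counts in *Snx14*-KO libraries (log2 fold change 0.59, SE 0.334, adjusted *P* = 0.752). Its wide interval, -0.16 to 1.35, is the widest of the 34.

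*Snx14*-KO cerebellum 3 was the highest of the 6 cerebella for 12 of the 34 genes, *Scd1*, *Fads2* and *Hacd4* among them, and it is the library with the high microglial and low Purkinje cell sums. It also had the highest *Gfap*, the astrocyte gene that responds to injury, which was at 285, 323 and 309 CPM in WT and 389.9, 465 and 971 CPM in *Snx14*-KO cerebella, without overlap between genotypes. Without this library, 0 of the 34 genes had an unadjusted *P* under 0.05, and the share of all genes was 4.91%. The log2 fold changes were 0.11 for *Scd1*, 0.13 for *Fads2*, 0.24 for *Elovl2* and 0.30 for *Hacd4*. Without WT cerebellum 1, 2 or 3, the number was 5, 1 or 2, beside 7.61%, 7.76% and 7.63% of all genes. Without *Snx14*-KO cerebellum 1 or 2 it was 3 or 4, beside 7.37% and 10.7% of all genes. The part of cell makeup in these values was not tested. *Elovl7* went the other way, at 28.1, 34.0 and 52.9 CPM in WT and 30.2, 30.7 and 23.9 CPM in *Snx14*-KO cerebella. The difference of -0.44 on the log2 scale (adjusted *P* = 0.666) was -0.14 without WT cerebellum 3, the library with the highest choroid plexus sum.

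**Figure D4:**
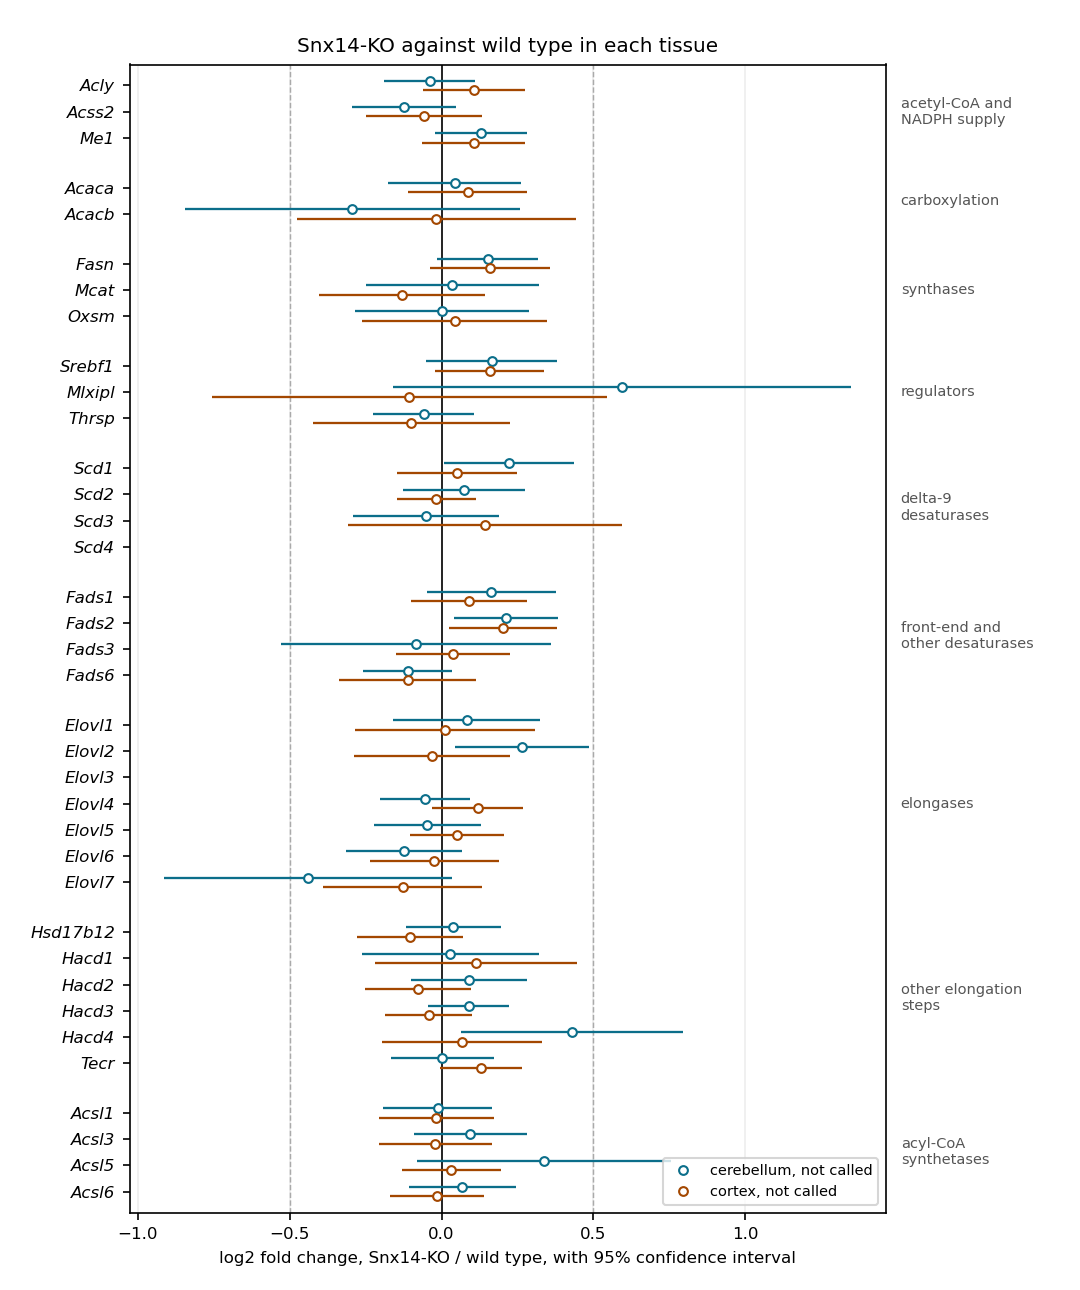
Log2 fold change of *Snx14*-KO over WT with its 95% confidence interval for the 34 genes tested in cerebellum and in cortex (3 mice per genotype), by role. No gene was called in either tissue, so all points are open, and 28 intervals in cerebellum and 32 in cortex lie inside the dashed lines at -0.5 and 0.5.

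**Figure D5:**
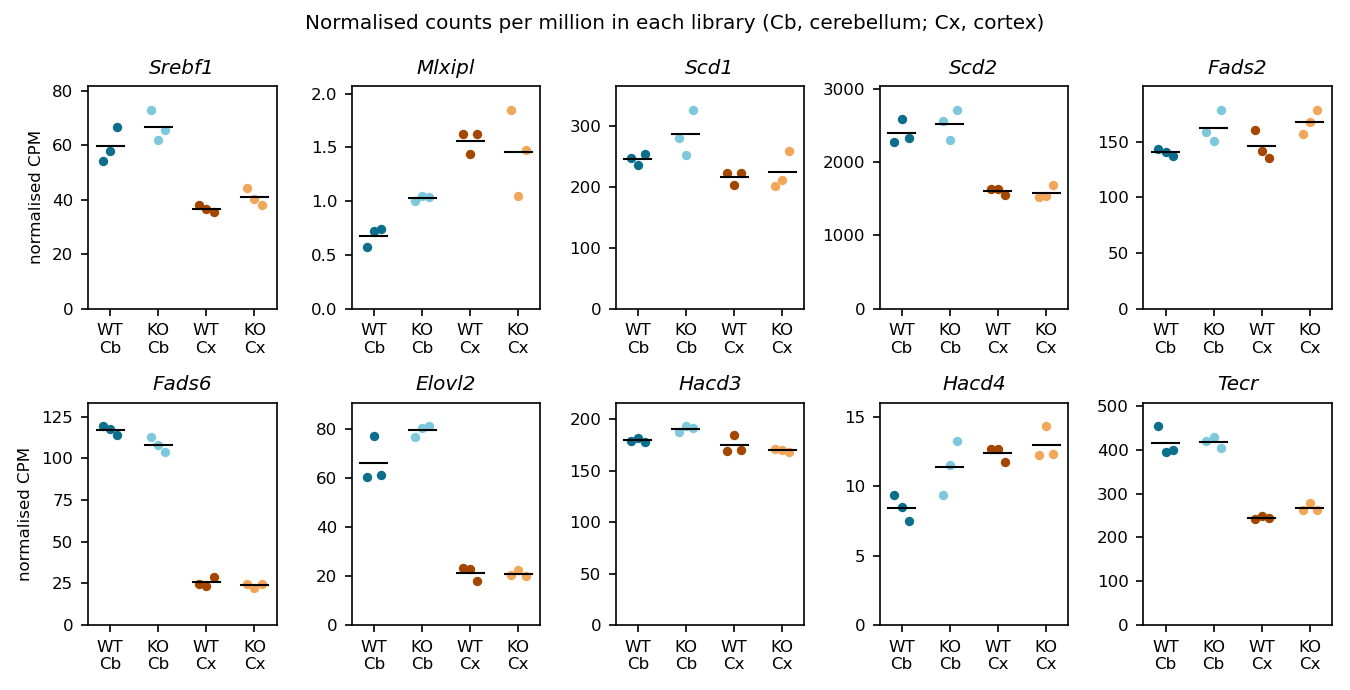
Normalised CPM in each of the 12 libraries for the 10 genes described one by one between the genotypes, with points for libraries, a bar for the mean of 3 and axes that start at 0. In cerebellum the *Snx14*-KO points of *Fads2*, *Hacd3*, *Hacd4* and *Mlxipl* lie above the WT points and those of *Fads6* below them, while *Fads6*, *Elovl2* and *Tecr* differ plainly between cerebellum and cortex.

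Between *Snx14*-KO and WT cortices, none of the 34 genes was called, where 0.00548% of all genes tested were called, *Snx14* again alone, and DESeq2 called none of the 34 beside 0.0493% of all genes. *Fads2* alone had an unadjusted *P* under 0.05, 2.94% against 4.5% of all genes. The groups did not overlap for *Srebf1* and *Tecr*, 5.88% against 9.26% of all genes. The median log2 fold change was 0.022 over the 34 genes, with 18 positive, and 8.2e-05 over all genes, with 9133 of 18255 positive. In 32 of the 34 genes the 95% confidence interval lay inside -0.5 to 0.5, the others being *Mlxipl* and *Scd3*. Choroid plexus sums, at 129, 13.6 and 17.8 CPM in WT and 10.9, 5.98 and 7.83 CPM in *Snx14*-KO cortices, and sums of the genes used as Purkinje cell markers, at 858, 872 and 971 and 798, 797 and 811 CPM, did not overlap between the genotypes, and their part was not tested.

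*Fads2* was at 160.5, 142 and 135 CPM in WT and 157, 168 and 178 CPM in *Snx14*-KO cortices (log2 fold change 0.20, SE 0.0811, adjusted *P* = 0.996). WT cortex 1 lay inside the *Snx14*-KO range, and the unadjusted *P* was no longer under 0.05 without WT cortex 2, without WT cortex 3 or without *Snx14*-KO cortex 3. With 1 cortex left out, the number of genes under 0.05 was 1, 0 and 0 without WT cortex 1, 2 and 3, beside 4.14%, 3.87% and 3.43% of all genes. It was 3 without *Snx14*-KO cortex 1 (*Fasn*, *Mcat* and *Fads2*), 1 without *Snx14*-KO cortex 2 and 3 without *Snx14*-KO cortex 3 (*Hsd17b12*, *Thrsp* and *Srebf1*), beside 6.03%, 4.45% and 6.33% of all genes. *Srebf1* was at 37.8, 36.6 and 35.3 CPM in WT and 44.1, 40.3 and 38.1 CPM in *Snx14*-KO cortices (log2 fold change 0.16, SE 0.0821, adjusted *P* = 0.996). *Tecr* was at 243, 248 and 243 CPM in WT and 264, 278 and 263 CPM in *Snx14*-KO cortices (log2 fold change 0.13, SE 0.0618, adjusted *P* = 0.996). Both genes lay above the WT range in each *Snx14*-KO library by a small step. In cerebellum the values of *Srebf1* were 54.3, 57.7 and 66.7 CPM in WT and 72.9, 61.8 and 65.5 CPM in *Snx14*-KO mice, with overlap (log2 fold change 0.16), and those of *Tecr* gave a log2 fold change of 0.0029.

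*Scd1* was at 223, 204 and 222 CPM in WT and 202, 212 and 259 CPM in *Snx14*-KO cortices, with a log2 fold change of 0.051 (95% CI, -0.15 to 0.25). *Scd2* was at 1628, 1629 and 1550.4 CPM in WT and 1524, 1538 and 1686 CPM in *Snx14*-KO cortices, with a log2 fold change of -0.017 (95% CI, -0.15 to 0.11). For both genes the groups overlapped. *Scd4*, below the count filter, had 10, 2 and 15 counts in WT and 1, 5 and 2 in *Snx14*-KO cortices, which overlapped, and with no filter its log2 fold change was -1.63 (95% CI, -3.07 to -0.18, unadjusted *P* = 0.0279, adjusted *P* = 0.798). With no filter *Fads2*, *Fasn* and *Scd4* were under an unadjusted *P* of 0.05, 3 of 36 genes, beside 5.1% of all genes. The other genes described one by one in cerebellum had cortical log2 fold changes of -0.032 for *Elovl2*, 0.067 for *Hacd4*, -0.043 for *Hacd3*, -0.11 for *Fads6* and -0.11 for *Mlxipl*, none with an unadjusted *P* under 0.05.

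*Snx14*-KO cortex 3 was the highest cortex for 12 of the 34 genes and the lowest for 2, and *Snx14*-KO cortex 2 was the highest for 8 and the lowest for 7. The latter was highest for *Fasn*, *Acaca* and *Acly* and lowest for *Acss2*, at 48.5 CPM, and *Thrsp*, at 15.8 CPM. *Fasn* was at 304, 273 and 285 CPM in WT and 288, 369.9 and 304 CPM in *Snx14*-KO cortices, *Acaca* at 86.7, 81.6 and 81.8 and 79.9, 102 and 83.4 CPM, and *Acly* at 161, 160.4 and 172 and 167, 195 and 169 CPM. With *Snx14*-KO cortex 2 the log2 fold changes were 0.16, 0.085 and 0.11, and without it they were 0.043, -0.030 and 0.032. It is also the cortex with the high meningeal and low oligodendrocyte sums. *Gfap*, named above, was at 189, 141 and 166 CPM in WT and 192, 1002 and 249.7 CPM in *Snx14*-KO cortices, without overlap and highest in the same library. The part of these signals in these values was not tested.

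Whether the genotype difference itself differed between cerebellum and cortex was tested with an interaction term over all 12 libraries. None of the 34 genes passed an adjusted *P* of 0.05, nor did any of all genes tested (0%), and DESeq2 called none of the 34 beside 0.186% of all genes. No gene of the 34 had an unadjusted *P* under 0.05, against 5.68% of all genes. This fit takes the 2 tissues of a mouse as independent. With the mouse as a block, 1 gene, *Elovl2*, was under 0.05, against 5.9% of all genes, with a difference of 0.28 (adjusted *P* = 0.837). Without any 1 library or any 1 mouse the number was 0 or 1, against 3.97% to 8.41% of all genes. The smallest *P* without the block was for *Elovl4* (0.0649 unadjusted, adjusted *P* = 0.923 by edgeR's quasi-likelihood test), whose log2 fold change was -0.054 in cerebellum and 0.12 in cortex. For *Scd1* the difference between the 2 log2 fold changes was 0.16 (95% CI, -0.15 to 0.46), and for *Scd2* it was 0.077 (95% CI, -0.15 to 0.30). Intervals of this width do not show that the tissues responded alike, and 10 of the 34 reached past -0.5 or 0.5.

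The neighbouring genes of the pathway were followed with the same tests. A list of 39 genes held regulators of SREBP and LXR, the citrate and NADPH supply, electron donors of the desaturases, the mitochondrial pathway and further acyl-CoA enzymes. Of these, 38 were found by name and 36 had enough counts. None was called between genotypes in either tissue. In cerebellum 5 had an unadjusted *P* under 0.05 (13.9%, against 8.15% of all genes). *Mid1ip1*, a partner of *Thrsp* that activates acetyl-CoA carboxylase, was at 136, 131 and 120.4 CPM in WT and 153, 149 and 149 CPM in *Snx14*-KO cerebella (log2 fold change 0.22, adjusted *P* = 0.406). *Acsbg1*, an acyl-CoA synthetase of astrocytes, was at 443, 451 and 444 CPM in WT and 503, 499 and 515 CPM in *Snx14*-KO cerebella (log2 fold change 0.18, adjusted *P* = 0.430), in libraries whose astrocyte sums are given above. Neither gene's groups overlapped. *Idh1* and *Pgd*, sources of NADPH, had log2 fold changes of 0.23 and 0.20, and *Nr1h3*, which encodes LXR alpha, had -0.49, from 7.46, 4.88 and 7.02 CPM in WT to 4.64, 4.88 and 4.26 CPM in *Snx14*-KO cerebella (adjusted *P* = 0.445, 0.448 and 0.549).

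In cortex 3 of the 36 had an unadjusted *P* under 0.05 (8.33%, against 4.5% of all genes). *Fa2h*, which hydroxylates the fatty acids of myelin, was at 41.0, 31.9 and 36.7 CPM in WT and 30.5, 28.4 and 28.5 CPM in *Snx14*-KO cortices, without overlap (log2 fold change -0.33, adjusted *P* = 0.996), in libraries whose oligodendrocyte markers summed to 7629, 7943 and 7723 and 7014, 5364 and 7674 CPM, and the part of those cells was not tested. *Insig1*, a sterol-regulated brake on SREBP, and *Idh1* had log2 fold changes of 0.29 and 0.23 (adjusted *P* = 0.996 for both). The values of *Insig1* were 86.6, 66.3 and 77.8 CPM in WT and 84.2, 109 and 89.2 CPM in *Snx14*-KO cortices, highest in *Snx14*-KO cortex 2, the library that was also highest for *Fasn*. Between WT cerebellum and WT cortex, 6 of the 36 were higher and 4 lower, 27.8% in all, against 40.4% of all genes (19% higher and 21.4% lower). The largest differences were in *G6pdx*, the entry to the pentose phosphate pathway (log2 fold change 1.56), *Nr1h3* (1.52), *Acsl4*, a synthetase that prefers arachidonic acid (-1.20), *Prkaa2*, a catalytic subunit of AMPK (-1.17), and *Acsbg1* (1.09).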

How the data were processed

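Per the labels and the study's methods, RNA was extracted with TRIzol, libraries were made with an NEBNext Ultra kit, and the authors aligned reads to GRCm38 with STAR and deposited raw read counts per gene from featureCounts (Subread 2.0.1), without regard to strand, dropping pairs that mapped to several places and counting a pair for every gene it overlapped. Overlapping and antisense genes can therefore share counts. Numbered features that name no gene (26248) and spike-ins (97) were left out.

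Counts were tested with edgeR 4.0.16 (quasi-likelihood test, TMM, filterByExpr) in R 4.3.3 with limma 3.58.1, separately for each comparison, and *P* values were adjusted by Benjamini-Hochberg over all genes tested. The depth per library is given in the report. TPM used the deposited counts and gene lengths. The genes described one by one were, between genotypes, *Scd1* and *Scd2* with the genes that had an unadjusted *P* under 0.05 or groups without overlap, and between tissues the 10 largest called differences. Per-library values of *Elovl7*, *Fasn*, *Acaca* and *Acly* between genotypes, the values of *Acss2*, *Thrsp* and *Gfap* given with them, and of *Fasn*, *Srebf1*, *Scd1*, *Scd2* and *Tecr* between tissues were added after they were seen. Wider pathway genes were named for an unadjusted *P* under 0.05 or as the 5 largest tissue differences. The members and lists were chosen with earlier results of these data known. Alternatives were DESeq2 1.42.0, RLE size factors, no low-count filter, 1 fit over 12 libraries, a mouse block and leaving out each library. Same-numbered cerebellum and cortex come from 1 mouse by the labels, and their deviations correlated at 0.112, 0.159 and 0.0738 in WT and 0.338, 0.0174 and 0.104 in *Snx14*-KO mice. *Snx14*-KO cerebella 2 and 3 correlated more highly with a cortex of another number, at 0.0422 and 0.154. The test was tried on counts simulated with the spread of these genes. In cerebellum it recovered 42.9% of 1.5-fold and 73.5% of 2-fold changes, and in cortex 60.3% and 78.9%. In the interaction it recovered 7.94% and 44.6%, so changes of this size can be missed. No library pair agreed within sampling noise. Libraries of 1-year-old mice were not analysed here.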

Additional observations from a re-analysis of the deposited data

How the results depend on the processing

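Between genotypes and in the interaction, no member was called under any alternative tried. The number called between tissues ranged from 15 to 18 in WT mice and from 12 to 14 in *Snx14*-KO mice when 1 library was left out. It was 15 without WT cerebellum 3, beside 3470 higher and 4052 lower of all 19004 genes, and 18 without WT cortex 2, beside 3371 and 3900 of 18937. It was 12 without *Snx14*-KO cerebellum 1, beside 3191 and 3622 of 18971, and 14 without *Snx14*-KO cortex 2 or 3, beside 3488 and 3541 of 18991 or 3202 and 3489 of 19081. Calls at the size threshold are named in the report, and for *Tecr* in *Snx14*-KO mice DESeq2, RLE size factors, no filter and 1 fit over 12 libraries gave 0.493, 0.493, 0.491 and 0.495, all just under it. The median log2 fold change in cerebellum between genotypes ranged from 0.0214 to 0.0763 with 1 library left out, highest without WT cerebellum 2, and the median between WT tissues ranged from 0.158 to 0.206, and was 0.113 with no low-count filter, where *Scd4* entered as well. The cause of these shifts was not tested.

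Signs changed only for values that were not called, under some alternative for 12 of 34 members in cerebellum and 18 in cortex between genotypes, 1 between WT tissues, 2 between *Snx14*-KO tissues and 15 in the interaction. Among the members named, *Tecr* between genotypes in cerebellum was -0.0081 with DESeq2, -0.0081 with RLE size factors, -0.0040 with no filter and -0.012 in the fit over 12 libraries. With 1 library left out, it ranged from -0.036 to 0.068, and in cortex *Hacd4* ranged from -0.012 to 0.10, *Mlxipl* from -0.31 to 0.088, *Hacd3* from -0.065 to 0.00057, *Elovl2* from -0.14 to 0.039, *Scd2* from -0.066 to 0.0070 and *Scd1* from -0.065 to 0.12. Between tissues *Acsl6* ranged from -0.012 to 0.034 in WT mice, and *Mcat* from -0.17 to 0.074 and *Fads1* from -0.090 to 0.11 in *Snx14*-KO mice.

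With the replicate block, 17 members were called between WT tissues, 14 between *Snx14*-KO tissues and 0 in the other comparisons, so the pairing changed no count of member calls. Of all genes, 3503 were called higher and 3946 lower of 18543 between WT tissues, and 3299 and 3567 of 18542 between *Snx14*-KO tissues. At an unadjusted *P* under 0.05 the block gave 3 members in cerebellum between genotypes (8.82%, against 7.79% of all genes). It gave 1 in cortex (2.94%, against 3.67%) and 1 in the interaction (2.94%, against 5.9%). The medians under the block were 0.0392 in cerebellum and 0.0268 in cortex between genotypes and 0.183 between WT tissues. Between genotypes the numbers join different animals, and same-numbered libraries correlated at -0.0932 to 0.0800.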
